A study of Arachis hypogaea with 14 samples.

Results

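The comparison described here follows the small RNAs of peanut (Arachis hypogaea) seeds of line 8107 as the seed grew, at 35 days after flowering (DAF) against 15 DAF. Line 8107 is a recombinant inbred line of the 8th generation with very large pods, and the series also holds line 8106, a recombinant inbred line of the same generation with medium-sized pods. The members are all 795 different small RNA sequences that the authors' table lists, measured in the 3 libraries of 8107 at 35 DAF and the 3 libraries of 8107 at 15 DAF. These are 6 of the 12 small RNA libraries, and the other 6 are 3 of 8106 at 35 DAF and 3 of 8106 at 15 DAF. No treatment is given, each line is a single inbred genotype, and RNA came from fresh seeds with no separation of embryo, endosperm and seed coat named in the labels. A further 2 degradome libraries, 1 per line, hold both stages together and so give no stage comparison.

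A plant miRNA is cut from a hairpin precursor as a duplex, and usually 1 of its strands is loaded into an Argonaute protein and guides the cleavage of transcripts with a closely matching site. Many plant miRNA families repress transcription factors that set organ identity, cell proliferation and hormone responses, and others answer to copper, sulfate and phosphate supply or keep disease resistance genes in check. In developing seeds, the change from cell division and pattern formation to storage filling is accompanied in many species by shifts in such families.

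The sequences below are those on which the stage comparison turns, written 5′ to 3′ as the authors' table gives them, with T for U and with the seed, bases 2 to 8, in capitals. Names start with the species of the registered miRNA that an entry matched: ahy is peanut, mtr Medicago truncatula, gma soybean, lja Lotus japonicus, nta tobacco and mdm apple. L and R count bases added or removed at the 5′ and 3′ end, and ss counts substitutions. MIR followed by p5 or p3 is a further arm of a known hairpin, and PC is a predicted candidate. The first 7 are entries that fell, and the 3 variants of miR164 share 1 seed.
mtr-miR398b: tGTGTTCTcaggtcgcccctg
ahy-miR408-3p: aTGCACTGcctcttccctggc
mtr-miR397-5p: tCATTGAGtgcagcgttgatg
ahy-miR3508: tAGAGGGTccccatgttctca
mtr-miR164a: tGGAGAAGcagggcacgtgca
mtr-miR164a_1ss21AT: tGGAGAAGcagggcacgtgct
mtr-miR164a_1ss21AG: tGGAGAAGcagggcacgtgcg
The next 8 are entries that rose. The seed of ahy-miR156b-5p_R+2 is shared with mtr-miR156e, and that of nta-miR156a_R+3_1ss11GA begins 1 base further into the same family sequence.
mtr-miR156e: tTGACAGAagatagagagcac
ahy-miR156b-5p_R+2: tTGACAGAagatagagagcacca
nta-miR156a_R+3_1ss11GA: tGACAGAAgaaagtgagcaccca
lja-miR396: tTCCACAGctttcttgaactg
mtr-miR2199_1ss17AG: tGATACACtagcacgggtcac
ahy-miR3514-3p: tCACCGTTaatacagaatcctt
gma-miR828a: tCTTGCTCaaatgagtattcca
ahy-MIR3516-p5: aTATTGACagaagtgttcttc
The last 6 are pairs from the 2 strands of families whose strands moved apart, with the strand that was more abundant over all libraries first in each pair.
ahy-miR167-5p: tGAAGCTGccagcatgatctt
ahy-miR167-3p_L-1: gATCATGTggcagtttcacc
gma-miR482b-3p: tCTTCCCTacacctcccatacc
mdm-miR482a-5p_L-1_2ss11TG20AT: gGAATGGGcggtttgggatga
mtr-miR1507-3p_L+1R-1: cCCTCGTTccatacatcatcta
mtr-miR1507-5p_R-1_2ss5TA18AG: aGAGATGTatggaacgagaga

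Values are the authors' normalized reads, and the labels and headers do not say how they were normalized. Over the 6 libraries, the listed values summed to 464658 to 527704 normalized reads at 35 DAF and to 604325 to 641690 at 15 DAF, and they stood for an estimated 580011 to 1178757 reads at 35 DAF and 937056 to 1550295 at 15 DAF. The 2 most abundant entries of a library, led by ahy-miR167-5p, took 47.5 to 52.4% of these totals. Libraries listed 457 to 478 entries above 0 at 35 DAF and 450, 362 and 459 at 15 DAF, where replicate 2 stood apart. Nothing in the labels ties a replicate to its own plant, so p-values measure the spread between these libraries, which may be technical. The lowest value above 0 stood for 6 reads, so a listed 0 can stand for a few reads.

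Of the 795 entries, 687 were above 0 in at least 1 of the 6 libraries, and 395 reached 10 normalized reads in at least 3 of the 12 libraries and were tested (171 known miRNA entries, 66 hairpin arms and 158 predicted candidates). An entry that passed this filter only through the stage where it is high was favoured to differ, so counts describe the tested entries and not all members. Without the 35 DAF libraries of 8107, 56 entries would have missed it, of which 27 rose and 29 did not pass the test. Without the 15 DAF libraries of 8107, 17 would have missed it, of which 10 fell and 7 did not pass the test. Some, such as mtr-miR169b, are in both counts. For named entries of this kind the adjusted p given is that of a fit to all entries with no filter, marked as unfiltered. Differences are on the log2(normalized reads + 1) scale, 35 minus 15 DAF, ± SE, and understate the change of low entries. Tests used limma on all 12 libraries with Benjamini-Hochberg adjustment over the entries or families tested, and "rose" and "fell" are used where the adjusted p was under 0.05. In bulk seed RNA, fewer cells of a type and less of a small RNA per cell cannot be told apart.

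The listed small RNAs of 8107 rose about as often as they fell. Of the 395 entries, 183 passed the test, which is 46.3%. Those that rose were 91 (23%) and those that fell were 92 (23.3%), and the median difference over all entries was 0.06. The libraries of the stages did not overlap for 229 entries (58%). The balance depended on scaling: with every library scaled to the same total, 115 rose and 70 fell and the median moved to 0.34, and with voom on estimated reads 115 rose and 58 fell with a median of 0.40. Without replicate 2 at 15 DAF, 78 rose and 74 fell. Known miRNA entries gave 39 that rose and 49 that fell of 171, hairpin arms 22 and 16 of 66, and predicted candidates 30 and 27 of 158.

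Known entries were also summed by family. Of 42 families tested, 24 passed (57.1%), 11 of them upward and 13 downward, with a median difference of 0.06 over the 42. With equal totals, median centring or voom on estimated reads, 17 families rose and 9 fell, so the smaller declines described below depend on the authors' scaling, and this is said beside each. The plot of family changes shows miR408, miR3508, miR397, miR164 and miR398 at the low end and miR2199, miR828 and miR2673 at the high end. The sums of miR2199, miR828 and miR2673 reached the filter only through the 35 DAF libraries of 8107, so their rise was favoured by that selection.

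**Figure D1:**
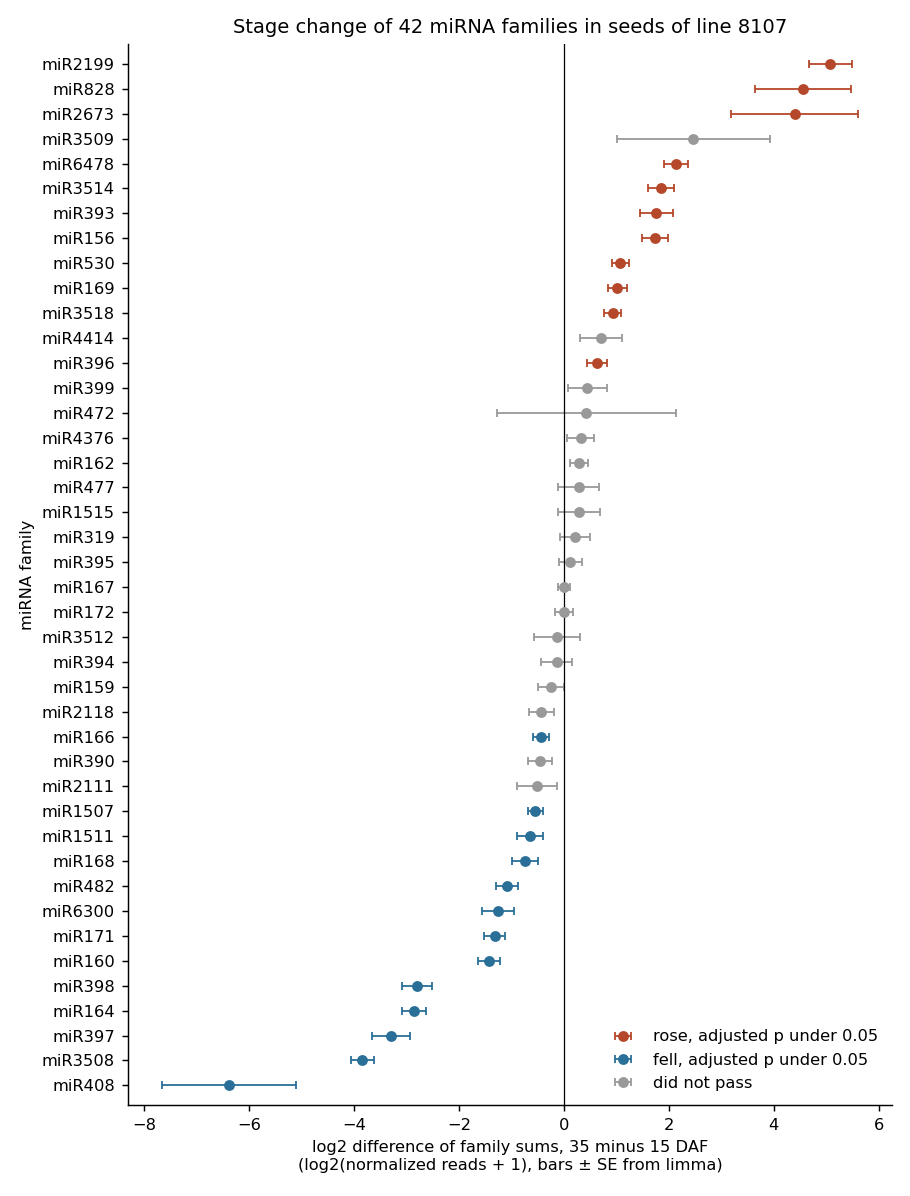
Stage change of 42 miRNA families in seeds of line 8107. The x axis gives the log2 difference of family sums, 35 minus 15 DAF, with bars of ± SE from limma, and the y axis lists the families by that difference. The 11 families in red rose, from 0.64 for miR396 to 5.08 for miR2199, and the 13 in blue fell, from −0.44 for miR166 to −6.38 for miR408. The falls of miR166, miR168, miR1507 and miR1511 were lost under other scalings, and those of miR166 and miR1507 turned positive with quantile normalization. The falls of miR171, miR482 and miR6300 did not pass in at least 1 other setting. miR2199, miR828 and miR2673 reached the filter only through the 35 DAF libraries of 8107.

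All tested known entries of the copper miRNAs fell. miR397, miR398 and miR408 are copper-responsive in plants, where they repress laccases, copper superoxide dismutases and plantacyanins. Of 9 listed known entries 6 were tested, and all 6 fell, with a median difference of −4.71, against 23.3% of all tested entries that fell. The 3 miR408 entries among them passed the filter only through the 15 DAF libraries of 8107, so their fall was favoured by that selection. mtr-miR398b had 89.5, 120 and 83.3 normalized reads at 35 DAF, against 1375, 2414 and 1579 at 15 DAF. Every 35 DAF library lay more than an order of magnitude below every 15 DAF library. The mean at 15 DAF was 18.3 times that at 35 DAF (log2 difference −4.16 ± 0.27, adjusted p = 1.55e-06). ahy-miR398_R+1, which shares its seed with mtr-miR398b, had 250, 373 and 202 normalized reads at 35 DAF and 646, 920 and 798 at 15 DAF. It fell with a difference of −1.55 ± 0.33 (adjusted p = 0.00299).

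The plantacyanin regulator miR408 was near or at the lower limit of the listing at 35 DAF. ahy-miR408-3p was listed at 0 in all 3 libraries at 35 DAF, against 30.9, 44.5 and 37.4 normalized reads at 15 DAF (unfiltered adjusted p = 0.00126). The 2 variants of ahy-miR408-3p that start 1 base later, which hold identical values in every library, had 0, 6.27 and 0 normalized reads at 35 DAF, against 68.4, 87.0 and 65.2 at 15 DAF. The family sum was 0, 12.5 and 0 at 35 DAF and 183, 227 and 185 at 15 DAF, with groups that did not overlap. Its difference of −6.38 ± 1.27 (adjusted p = 0.000628) rests on values at or near 0 and depends on the pseudocount. The laccase regulator miR397 was measured through the single entry mtr-miR397-5p, at 13.4, 13.4 and 14.4 normalized reads at 35 DAF against 119, 226 and 111 at 15 DAF. The 15 DAF mean was 11.04 times that at 35 DAF (−3.30 ± 0.36, adjusted p = 3.64e-06). A hairpin arm of the same group, gma-MIR398d-p3, was listed at 0 in all 35 DAF libraries and at 31.3, 61.6 and 43.9 at 15 DAF (adjusted p = 1.72e-06).

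**Figure D2:**
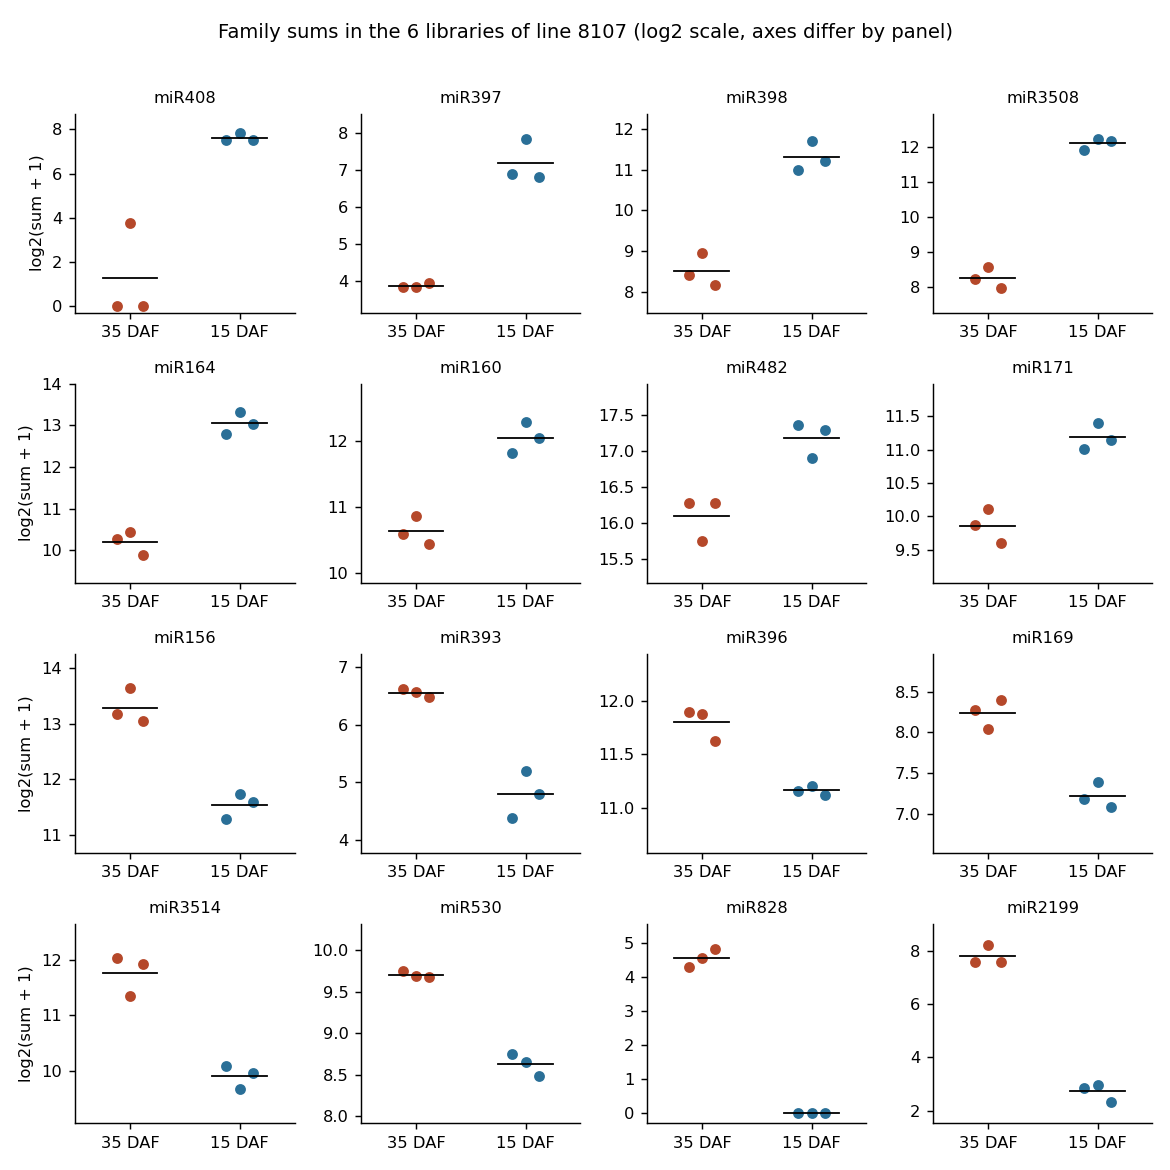
Family sums of 16 families in each of the 6 libraries of line 8107, 35 DAF left and 15 DAF right. The y axis is log2(sum of normalized reads + 1), points are libraries and lines are means, and axes differ by panel. The top 8 families lie lower at 35 DAF and the bottom 8 higher, with no overlap between stages in any of the 16.

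Of the known entries of the phase change list, many rose and none fell. miR156 represses SPL transcription factors, which promote the transition from juvenile to adult growth, and miR172 represses AP2-like factors, which act in flower and seed size control. Of 18 tested entries of miR156 and miR172, 10 rose (55.6%, against 23% of all entries), with a median difference of 1.40 against 0.06 over all entries. Of 7 tested hairpin arms of these families 1 rose and 1 fell. mtr-miR156e had 5503, 6830 and 4961 normalized reads at 35 DAF, against 1326, 1639 and 1640 at 15 DAF. All 35 DAF libraries were at least 3 times as high as any 15 DAF library. The mean at 35 DAF was 3.75 times that at 15 DAF (1.90 ± 0.22, adjusted p = 6.75e-05). mdm-miR156a_1ss11GA, whose seed differs, reached 2280, 3913 and 2115 normalized reads at 35 DAF and 741, 1098 and 919 at 15 DAF. It rose by 1.55 ± 0.32 (adjusted p = 0.00262).

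Longer forms rose too. ahy-miR156b-5p_R+2, with 2 bases added at the 3′ end, had 47.7, 41.2 and 65.7 normalized reads at 35 DAF and was listed at 0 in all 3 libraries at 15 DAF (adjusted p = 1.85e-06). nta-miR156a_R+3_1ss11GA, with 3 bases added, had 121, 170 and 191 at 35 DAF, against 8.54, 8.22 and 11.3 at 15 DAF, a mean 17.2 times higher (3.95 ± 0.59, unfiltered adjusted p = 0.000564). The less abundant strand also rose: ahy-miR156b-3p had 339, 383 and 308 normalized reads at 35 DAF and 113, 122 and 105 at 15 DAF (1.59 ± 0.18, adjusted p = 5.28e-05). The whole family summed to 9212, 12807 and 8431 at 35 DAF and to 2512, 3418 and 3103 at 15 DAF, and it rose by 1.74 ± 0.25 (adjusted p = 4.65e-05). One form ran against it, since ppe-miR156a_R+1_1ss5AG, chosen after its values were seen, had 38.8, 46.1 and 28.0 normalized reads at 35 DAF and 53.6, 71.2 and 52.7 at 15 DAF. Its difference of −0.65 ± 0.28 did not pass (adjusted p = 0.0803) but did with the replicate number as a block (adjusted p = 0.00693).

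The miR172 sum did not pass, while its less abundant strand rose. The family sum was 3174, 3879 and 3029 normalized reads at 35 DAF and 2931, 3718 and 3432 at 15 DAF, with overlapping stages (with equal totals 0.33, adjusted p = 0.0458, which passed). The main entry, mtr-miR172d-3p_R+1, had 2699, 3320 and 2477 at 35 DAF and 2727, 3521 and 3253 at 15 DAF (−0.16 ± 0.14, adjusted p = 0.385). With quantile normalization its difference was −0.48 and passed (adjusted p = 0.00919). The opposite strand, mtr-miR172c-5p, had 315, 360 and 357 normalized reads at 35 DAF, against 63.6, 60.3 and 59.6 at 15 DAF. It was 5.62 times as high in the mean at 35 DAF and rose by 2.47 ± 0.14 (adjusted p = 8.23e-07). In the degradome table, known miR156 entries had listed sites in 10 transcripts named SPL6, 5 named SPL13A, 5 named SPL3 and 4 named SPL12, and miR172 entries in 5 named AP2 and 8 named RAP2-7.

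Auxin families moved in both directions. miR160 represses the repressing auxin response factors of the ARF10/16/17 group, miR167 represses ARF6 and ARF8, miR390 triggers the tasiRNAs that target ARF3 and ARF4, and miR393 represses the auxin receptors TIR1 and AFB. Of 19 tested entries in these families, 6 rose (31.6%, against 23% of all entries) and 3 fell (15.8%, against 23.3%). mtr-miR160a had 1328, 1653 and 1178 normalized reads at 35 DAF, against 3267, 4629 and 3870 at 15 DAF. The stages did not overlap, the 15 DAF mean was 2.83 times that at 35 DAF, and the entry fell (−1.50 ± 0.21, adjusted p = 0.000207). The miR160 family fell likewise (−1.43 ± 0.21, adjusted p = 5.09e-05). mtr-miR393a_R+1_2 had 45.5, 39.8 and 39.3 normalized reads at 35 DAF, against 3.32, 5.48 and 3.22 at 15 DAF, and all 35 DAF values were several times any 15 DAF value. It rose (3.11 ± 0.39, unfiltered adjusted p = 0.00019), and the miR393 family, which stayed below 100 normalized reads in every library, rose by 1.76 ± 0.32 (adjusted p = 0.000309). That sum also adds mtr-miR393a_R+1_1, which holds the same values as mtr-miR393a_R+1_2, so it counts these values more than once.

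The most abundant entry of all, ahy-miR167-5p, did not change detectably. It had 185429, 202558 and 171057 normalized reads at 35 DAF and 182635, 213654 and 187910 at 15 DAF, with overlapping stages (−0.06 ± 0.14, adjusted p = 0.737). With voom on estimated reads the difference was 0.27 (adjusted p = 0.0182), so a small rise was called under that scaling. The opposite strand rose: ahy-miR167-3p_L-1 had 7987, 8979 and 7213 normalized reads at 35 DAF, against 1149, 1478 and 1272 at 15 DAF. That is 6.20 times as high in the mean (2.63 ± 0.16, adjusted p = 8.23e-07). sly-miR167b-3p, a match to a tomato miRNA on the same strand, had 32.8, 57.3 and 27.2 at 35 DAF and was listed at 0 in all 15 DAF libraries (unfiltered adjusted p = 1.67e-05). The miR390 sum was 635, 809 and 556 normalized reads at 35 DAF and 790, 991 and 939 at 15 DAF. Its difference of −0.45 ± 0.22 did not pass (adjusted p = 0.103) but passed with the replicate number as a block (adjusted p = 0.0116) and without replicate 2 at 35 DAF (−0.60, adjusted p = 0.0422). The degradome table listed sites of miR160 in 6 transcripts named ARF18 and 4 named ARF17, and of miR393 in 4 named TIR1 and 2 named AFB2.

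Growth and organ development families held more entries that fell than rose. Of 57 tested entries, 24 fell (42.1%) and 10 rose (17.5%), against 23.3% and 23% of all entries, and the median difference was −0.29. Of the 24 falls, 12 were forms of miR166 and 5 were forms of miR164, many of which overlap in sequence. The excess of falls thus rests largely on forms of these families, and the fall of the miR166 sum depended on the scaling. miR164 represses NAC transcription factors of the CUC and NAC1 type, which set organ boundaries. mtr-miR164a had 1150, 1326 and 896 normalized reads at 35 DAF, against 6817, 10019 and 8146 at 15 DAF. The lowest 15 DAF library was more than 5 times the highest 35 DAF library. The 15 DAF mean was 7.41 times that at 35 DAF (−2.89 ± 0.22, adjusted p = 3.87e-06). The variants that differ at the last base fell as well: mtr-miR164a_1ss21AT had 4.47, 0 and 0 at 35 DAF and 51.7, 36.3 and 39.9 at 15 DAF (−4.61 ± 0.70, adjusted p = 0.000424). mtr-miR164a_1ss21AG had 4.47, 5.82 and 0 at 35 DAF and 57.9, 63.0 and 56.0 at 15 DAF (−4.16 ± 0.62, adjusted p = 0.000406). mtr-miR164a_R+1, with 1 base added, had 8.95, 8.06 and 0 at 35 DAF and 38.0, 64.4 and 53.1 at 15 DAF (−3.53 ± 0.72, adjusted p = 0.00253). Sites of miR164 entries were listed in 4 transcripts named NAC100 and 2 named NAC021.

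miR171, which represses SCL6-type GRAS factors that act in meristems, and miR166, which represses the HD-ZIP III factors of leaf polarity and vasculature, were lower in sum at 35 DAF. The miR171 sum was 937, 1104 and 774 normalized reads at 35 DAF and 2063, 2698 and 2252 at 15 DAF (−1.32 ± 0.20, adjusted p = 8.46e-05). With quantile normalization its difference was −0.58 (adjusted p = 0.0506). The miR166 sum was 60114, 67718 and 57123 at 35 DAF and 75496, 89402 and 85739 at 15 DAF, with stages that did not overlap. Its fall of −0.44 ± 0.15 (adjusted p = 0.0233) depended on the scaling: the difference was −0.11 with equal totals, −0.04 with median centring, −0.10 with voom and 0.40 with quantile normalization, none of which passed. It was also lost without replicate 1 or 3 at 35 DAF or replicate 2 or 3 at 15 DAF (−0.42 to −0.39, adjusted p 0.0725 to 0.082). The main entry mtr-miR166a, at 43854, 48236 and 41817 normalized reads at 35 DAF and 52742, 61968 and 60080 at 15 DAF, had the same limits (−0.38 ± 0.14, adjusted p = 0.0462; −0.37 to −0.34 and adjusted p 0.114 to 0.134 without those libraries, and 0.45 with quantile normalization, adjusted p = 0.298). Its variant mtr-miR166a_1ss20CT fell, with 6314, 7167 and 5650 at 35 DAF and 12370, 14820 and 13692 at 15 DAF (−1.10 ± 0.16, adjusted p = 0.000393).

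miR396, which represses the GRF factors of cell proliferation, and miR169, which represses NF-YA subunits, rose. lja-miR396 had 2271, 2097 and 1838 normalized reads at 35 DAF, against 788, 734 and 691 at 15 DAF, and was 2.80 times as high in the mean (1.48 ± 0.18, adjusted p = 9.21e-05). mtr-miR396a-5p, which differs from it only in the last base, had 617, 670 and 485 at 35 DAF and 415, 527 and 450 at 15 DAF, with overlapping stages. Its difference of 0.34 ± 0.20 did not pass (adjusted p = 0.198) but did with the replicate block (adjusted p = 0.039). The miR396 family rose by 0.64 ± 0.19 (adjusted p = 0.011), and its listed sites include 19 transcripts named GRF1 and 5 named GRF5. The miR169 sum was 308, 264 and 337 at 35 DAF and 144, 167 and 135 at 15 DAF (1.02 ± 0.18, adjusted p = 0.000309). With quantile normalization the miR169 difference was 1.08 (adjusted p = 0.0682). miR159, which represses GAMYB factors, did not pass, with 39110, 55296 and 35906 normalized reads at 35 DAF and 47878, 56663 and 48448 at 15 DAF (−0.25 ± 0.25, adjusted p = 0.41).

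Within the development families, forms of 1 family could move in opposite directions. These forms were picked with their values in view. miR319 represses TCP factors, and its sum of 5331, 8299 and 4869 normalized reads at 35 DAF and 4919, 5848 and 4904 at 15 DAF did not pass (0.20 ± 0.29, adjusted p = 0.579). Within it, gma-miR319f_R+1 had 727, 1121 and 678 at 35 DAF, against 245, 268 and 242 at 15 DAF, and rose (1.70 ± 0.27, adjusted p = 0.000515). gma-miR319d_L+1R-2, which has the same seed, had 139, 189 and 109 at 35 DAF, against 633, 701 and 623 at 15 DAF, and fell (−2.19 ± 0.26, adjusted p = 7.65e-05). gma-miR319d_L+1 was listed at 0 in all 35 DAF libraries and at 11.4, 12.3 and 23.4 at 15 DAF (unfiltered adjusted p = 0.00268).
gma-miR319f_R+1: tTGGACTGaaggggcctcttc
gma-miR319d_L+1R-2: tTGGACTGaaggggagctcct
On the 5p strand of miR166, mtr-miR166e-5p_2ss10GT11CT had 945, 1294 and 889 normalized reads at 35 DAF and 174, 217 and 193 at 15 DAF, and rose (2.40 ± 0.22, adjusted p = 1.4e-05). mtr-miR166e-5p, which differs from it at the 2 positions in its name, had 384, 481 and 339 at 35 DAF and 989, 1270 and 1088 at 15 DAF, and fell (−1.48 ± 0.19, adjusted p = 0.000155). In miR171, lja-miR171c_1ss5CT had 22.4, 43.0 and 24.03 at 35 DAF and 0, 0 and 6.44 at 15 DAF (3.92 ± 0.73, unfiltered adjusted p = 0.0025), while gma-miR171n_1ss20TC had 533, 599 and 418 at 35 DAF and 1533, 2044 and 1650 at 15 DAF (−1.76 ± 0.20, adjusted p = 5.58e-05). Reads that match several entries of a family could count in each, so these forms are uncertain as separate molecules.

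The small RNA pathway list held 2 falls. miR168 represses AGO1 and miR162 represses DCL1, the Argonaute and Dicer proteins of the miRNA pathway itself, and miR1515 represses the Dicer gene DCL2 in soybean. Of 8 tested entries 2 fell, a share near the 23.3% of all entries that fell, and none rose. gma-miR168a had 7719, 8969 and 5856 normalized reads at 35 DAF, against 10942, 14418 and 12204 at 15 DAF, without overlap (−0.75 ± 0.25, adjusted p = 0.0335). The fall did not pass with equal totals (−0.42, adjusted p = 0.147), median centring, quantile normalization or voom. It was also lost without replicate 1 or 3 at 35 DAF or replicate 2 or 3 at 15 DAF, at −0.78 to −0.58 with adjusted p 0.0682 to 0.127. The other fall was that of csi-miR1515_L-1, a match to a sweet orange miRNA, at 14.2, 15.2 and 23.2 normalized reads at 35 DAF and 33.7, 43.8 and 34.2 at 15 DAF (−1.07 ± 0.28, adjusted p = 0.0102). The miR1515 sum had 1565, 802 and 1666 normalized reads at 35 DAF and 1263, 971 and 951 at 15 DAF. That sum did not pass (0.28 ± 0.40, adjusted p = 0.579). The hairpin arm gma-MIR168a-p3, 737, 995 and 582 at 35 DAF and 1628, 2113 and 1862 at 15 DAF, fell as well (−1.30 ± 0.26, adjusted p = 0.00199). gma-miR162a_R+1 had 802, 686 and 732 at 35 DAF and 638, 548 and 643 at 15 DAF, and the difference of 0.28 ± 0.15 did not pass (adjusted p = 0.165), although it did with equal totals (0.61, adjusted p = 0.00985).

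Families that target NB-LRR disease resistance genes and start phasiRNA production gave 2 entries that rose and 4 that fell of 10 (20% and 40%, against 23% and 23.3% of all entries). gma-miR482b-3p, the second most abundant small RNA of 8107, had 57476, 42376 and 57219 normalized reads at 35 DAF, against 133822, 100758 and 132338 at 15 DAF. No library overlapped, and the 15 DAF mean was 2.34 times higher (−1.23 ± 0.20, adjusted p = 0.000601). With quantile normalization the difference was −0.45 (adjusted p = 0.306). The second miR482 form, gma-miR482a-3p_L-2_1ss14GA, had 21053, 11344 and 21448 at 35 DAF and 34615, 22428 and 29309 at 15 DAF. Its difference of −0.72 ± 0.45 did not pass (adjusted p = 0.226) but did with the replicate block (adjusted p = 0.0318), and replicate 2 was the lowest library at each stage. The miR482 sum fell (−1.08 ± 0.21, adjusted p = 0.000429). Over the settings tried its difference was −1.23 to −0.59 with adjusted p up to 0.268, so this call was not kept in all. mtr-miR1507-3p_L+1R-1 had 967, 835 and 869 at 35 DAF and 2153, 1998 and 1990 at 15 DAF, and fell (−1.20 ± 0.09, adjusted p = 3.87e-06). The miR1507 sum fell by less (−0.55 ± 0.15, adjusted p = 0.00548), and it did not pass with equal totals (−0.21), median centring (−0.15), voom (−0.22) or quantile normalization (0.36, adjusted p = 0.085). The miR2118 sum had 3033, 2074 and 3051 at 35 DAF and 3880, 3247 and 3724 at 15 DAF (−0.43 ± 0.24, adjusted p = 0.156, and 0.0134 with the replicate block). The degradome table listed 8 transcripts named RPPL1 and 7 named RGA3, both names of resistance gene homologues, with sites of miR1507.

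Most tested entries of the sulfate and phosphate families did not pass the test. miR395 represses ATP sulfurylase and sulfate transporters, and miR399, miR827 and miR2111 act in phosphate signalling. Of 7 tested entries 2 rose (28.6%, near the 23% of all entries) and none fell. mtr-miR395a_L+1R-1_1ss21TC had 185, 251 and 151 normalized reads at 35 DAF and 177, 248 and 220 at 15 DAF (−0.15 ± 0.22, adjusted p = 0.593). mtr-miR395a_L-1R+1_1ss21CT, which starts 2 bases later, had 38.8, 72.5 and 49.7 at 35 DAF and 18.5, 23.97 and 17.3 at 15 DAF, and rose (1.35 ± 0.30, adjusted p = 0.00441). The degradome table named APS1, an ATP sulfurylase, in the 2 transcripts with a miR395 site.

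Families known mainly from legumes held the largest rise among family sums. mtr-miR2199_1ss17AG had 191, 295 and 191 normalized reads at 35 DAF, against 6.17, 6.85 and 4.03 at 15 DAF. That is 39.8 times as high in the mean (5.08 ± 0.34, unfiltered adjusted p = 4.26e-06). The other 16 tested entries of this list gave none that rose and 4 that fell, so that 4 of 17 fell (23.5%), near the 23.3% of all entries. Most of them belong to miR1511, whose sum was 29142, 40037 and 24950 at 35 DAF and 41765, 56109 and 47840 at 15 DAF (−0.65 ± 0.25, adjusted p = 0.0406). The miR1511 fall was not called with equal totals (−0.32), median centring (−0.25), voom (−0.30) or quantile normalization (0.00). It was also lost without replicate 1 or 3 at 35 DAF or replicate 2 or 3 at 15 DAF (−0.65 to −0.50, adjusted p 0.0841 to 0.168). The forms gma-miR1511_R+1_1, gma-miR1511_R+1_2 and gma-miR1511_R+1_3 hold identical values, 9389, 12890 and 7993 at 35 DAF and 13202, 16998 and 14933 at 15 DAF. Their difference of −0.60 ± 0.26 had an adjusted p of 0.0828, and of 0.00577 with the replicate block. The miR1511 sum adds the values of every one of these forms, so it counts 1 set of values several times. The shorter gma-miR1511_R-2, of 18 bases, had 86.5, 278 and 103 at 35 DAF and 1066, 3765 and 1706 at 15 DAF (−3.80 ± 0.69, adjusted p = 0.00139). Its replicate 2 was the highest library at both stages.

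Small RNAs registered in Arachis showed changes in both directions among mature entries and rises among hairpin arms. Nothing is stated here about their targets in other species. ahy-miR3508 had 300, 379 and 252 normalized reads at 35 DAF, against 3831, 4822 and 4631 at 15 DAF. It was 14.3 times as high in the mean at 15 DAF (−3.84 ± 0.21, adjusted p = 8.23e-07). ahy-miR3514-3p had 4172, 2605 and 3884 at 35 DAF and 1093, 820 and 1000 at 15 DAF, 3.66 times as high in the mean at 35 DAF (1.85 ± 0.24, adjusted p = 0.000157). ahy-miR3518 had 337, 373 and 258 at 35 DAF and 159.5, 177 and 163 at 15 DAF (0.94 ± 0.14, adjusted p = 0.000481). Of 10 tested hairpin arms of these families 6 rose and none fell, with a median of 2.13, against 23% of all entries that rose. ahy-MIR3516-p5 had 2964, 3667 and 2658 at 35 DAF, against 126, 163 and 148 at 15 DAF, 21.2 times as high in the mean (4.39 ± 0.67, adjusted p = 0.000441). ahy-MIR3509-p3_2ss16AG20TG, of 24 bases, had 3754, 1559 and 4395 at 35 DAF and 581, 331 and 468 at 15 DAF (2.72 ± 0.70, adjusted p = 0.00898). ahy-MIR3513-p5 had 240, 357 and 250 at 35 DAF and 25.6, 9.59 and 43.5 at 15 DAF (3.58 ± 0.56, adjusted p = 0.000503). ahy-MIR3515-p3 had 46.2, 30.4 and 60.9 at 35 DAF and was listed at 0 in all 15 DAF libraries (unfiltered adjusted p = 0.00157).
ahy-MIR3509-p3_2ss16AG20TG: aCTTCACGtgaagtcgactgcacc
ahy-MIR3513-p5: tGAACTTCtgttgattgtgtt
ahy-MIR3515-p3: tCATAAAAgtgaggtgtagagt

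Entries whose registered names resemble fragments of tRNA or rRNA gave 3 that rose and 5 that fell of 14 (21.4% and 35.7%, against 23% and 23.3% of all entries). The miR6478 sum was 186, 167 and 162 normalized reads at 35 DAF and 32.3, 41.8 and 41.9 at 15 DAF, and rose (2.13 ± 0.23, adjusted p = 3.12e-06). The miR6300 sum was 968, 798 and 1023 at 35 DAF and 2177, 2430 and 2013 at 15 DAF, and fell (−1.25 ± 0.30, adjusted p = 0.0028). With quantile normalization its difference was −0.38 (adjusted p = 0.389), and its most abundant entry alone gave −0.39 (adjusted p = 0.634). The shortest form, gma-miR6300, had 117, 361 and 92.1 at 35 DAF and 323, 1274 and 567 at 15 DAF, with replicate 2 highest at each stage. Its difference of −1.96 ± 0.83 did not pass (adjusted p = 0.0807) but did with the replicate block (adjusted p = 0.000273) and without replicate 2 at 35 DAF (−2.56, adjusted p = 0.0397). The hairpin arm gma-MIR5368-p3, of 19 bases, had 416, 499 and 441 normalized reads at 35 DAF and was listed at 0 in all 3 libraries at 15 DAF (unfiltered adjusted p = 1.25e-05), the highest level reached by any entry listed at 0 throughout 1 stage of 8107.
gma-MIR5368-p3: gCTAGAATtctaaccttgt

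Of the 9 tested known entries in no list 3 rose (33.3%, against 23% of all entries) and none fell. miR828 starts phasiRNA production from MYB transcripts, and gma-miR828a had 18.6, 18.8 and 20.8 normalized reads at 35 DAF and was listed at 0 in all 3 libraries at 15 DAF (unfiltered adjusted p = 0.00155). The degradome table listed 3 transcripts named MYB12 with a miR828 site. The miR530 sum was 862, 822 and 816 at 35 DAF and 430, 401 and 357 at 15 DAF, and rose by 1.07 ± 0.17 (adjusted p = 8.46e-05). mtr-miR2673a_L+2_1ss23AT, a repeat of a short pyrimidine motif, had 32.8, 11.6 and 20.8 at 35 DAF and was listed at 0 at 15 DAF (unfiltered adjusted p = 0.0151). Its family sum, which holds this entry alone, did not pass with quantile normalization (adjusted p = 0.111).

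In several families the strands moved apart. For 13 families both strands reached the filter, and the ratio of the less abundant strand to the more abundant strand was compared between stages, a result added after the data were seen. The ratio changed in 10 of the 13 (76.9%), upward in 8 and downward in 2. The less abundant strands of miR164 and miR390 reached the filter only through the 35 DAF libraries of 8107, where they were high. Their upward changes were favoured by that selection, so the count describes the tested families only. Because the ratio is taken within a library, scaling enters it only through the pseudocount. In miR482 the 5p strand carried 1.66, 2.77 and 1.55% of the reads of both strands at 35 DAF, against 0.0276, 0.0611 and 0.0301% at 15 DAF (log2 ratio 5.70 ± 0.46, adjusted p = 7.14e-07). The rise went with the entry mdm-miR482a-5p_L-1_2ss11TG20AT, at 1325, 1534 and 1240 normalized reads at 35 DAF and 46.5, 75.3 and 48.7 at 15 DAF, while gma-miR482b-3p fell. In miR1507 the 5p strand carried 36.5, 45.8 and 34.5% at 35 DAF and 3.42, 4.89 and 4.44% at 15 DAF (3.84 ± 0.28, adjusted p = 4.43e-07). mtr-miR1507-5p_R-1_2ss5TA18AG was the entry behind it, with 574, 750 and 468 normalized reads at 35 DAF and 78.3, 108 and 95.4 at 15 DAF.

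The 3p strand of miR167 carried 4.05, 4.19 and 3.96% at 35 DAF, against 0.615, 0.678 and 0.664% at 15 DAF (2.69 ± 0.10, adjusted p = 2.36e-09). The 5p strand of miR172 carried 13.03, 12.2 and 14.4% at 35 DAF and 4.71, 3.89 and 3.71% at 15 DAF (1.83 ± 0.12, adjusted p = 1.48e-07). In miR164 the 3p strand stayed at 10.4 to 16.1 normalized reads at 35 DAF and 0 to 4.27 at 15 DAF, so its ratio (5.17 ± 0.75, adjusted p = 9.04e-05) was taken over a strand near the lower limit and depends on the pseudocount. miR168, miR160 and miR390 had smaller upward changes of 1.09, 0.59 and 1.29. The call for miR390 was lost without any 1 of replicates 1, 2 and 3 at 35 DAF or replicates 2 and 3 at 15 DAF, at 1.09 to 1.40 with adjusted p 0.052 to 0.108.

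miR393 and miR396 went the other way. In miR393 the 3p strand carried 6.87, 15.6 and 10.9% at 35 DAF, against 66.7, 69.2 and 76.1% at 15 DAF. The strand that was more abundant thus differed between the stages (−4.12 ± 0.51, adjusted p = 2.97e-05). The opposite strand sums mtr-miR393a_R+1_1 and mtr-miR393a_R+1_2, which hold identical values, so these 3p shares are understated. Singly, each passed the filter only through the 35 DAF libraries of 8107, so the fall of this ratio could be favoured by that selection. It passed in every setting tried, identical entries counted once among them (−4.42 to −3.45, adjusted p up to 0.000214). In miR396 the 3p strand carried 23.9, 26.3 and 26.1% at 35 DAF and 47.5, 46.7 and 48.8% at 15 DAF (−1.42 ± 0.08, adjusted p = 7.96e-08). The ratios of miR156, miR159 and miR166 did not pass, at −0.20, 0.48 and 0.22, but those of miR159 and miR166 passed with the replicate block (adjusted p = 0.0035 each). The miR159 ratio also passed without replicate 2 at 35 DAF (0.67, adjusted p = 0.0189), and that of miR156 without replicate 3 at 15 DAF (−0.30, adjusted p = 0.0455).

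**Figure D3:**
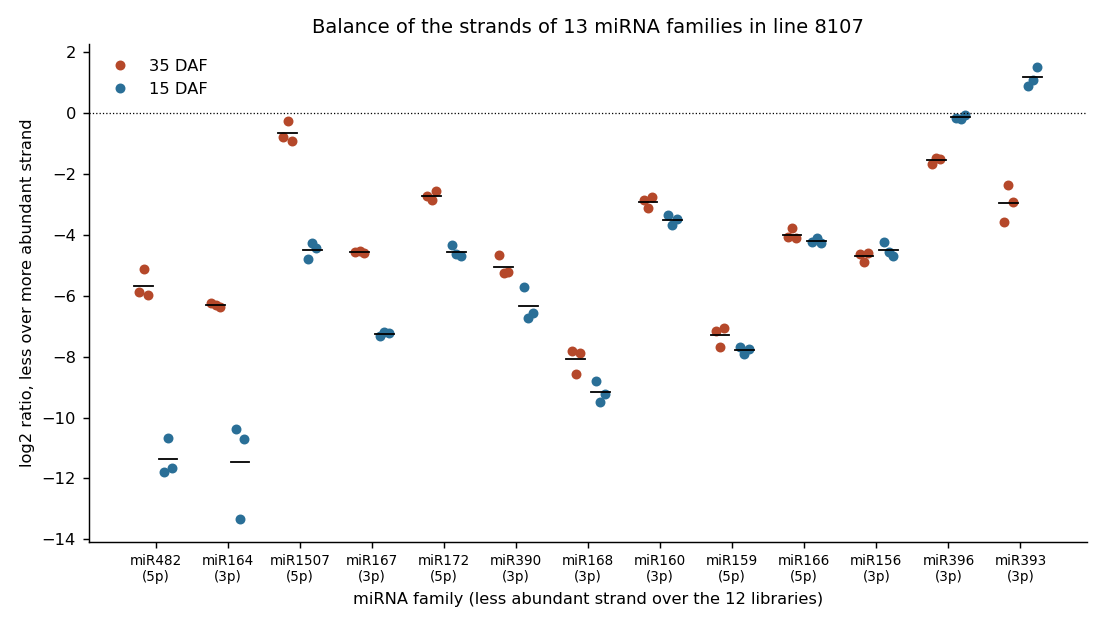
Balance of the strands of 13 families in line 8107. The y axis is the log2 ratio of the less abundant over the more abundant strand (sums + 1) in each library, with 35 DAF left and 15 DAF right for each family and lines at the means. The ratio is higher at 35 DAF in every library for miR482, miR164, miR1507, miR167 and miR172, and lower for miR396 and miR393. It is also higher in every library, by less, for miR390, miR168 and miR160, and narrowly for miR159, whose change did not pass.

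Of the 158 predicted candidates 36.1% passed the test, against 51.5% of 171 known entries and 57.6% of 66 hairpin arms. By length, 20.5% of the 83 predicted candidates of 24 bases passed, against 55.0% of the 40 of 21 bases and 53.8% of the 26 of 22 bases. Plant small RNAs of 24 bases are mostly heterochromatic siRNAs, while miRNAs are mostly of 21 or 22 bases. PC-3p-231_14884 had 2427, 2026 and 2427 normalized reads at 35 DAF and 723, 730 and 691 at 15 DAF, 3.21 times as high in the mean (1.68 ± 0.14, adjusted p = 6.34e-06). It shares a run of 19 bases with the miR1507 hairpin arm gma-MIR1507b-p3_2ss2CT17GA. PC-3p-2588_2288 had 77.5, 63.6 and 70.5 at 35 DAF, against 389, 363 and 316 at 15 DAF, and fell (−2.32 ± 0.13, adjusted p = 8.23e-07). PC-5p-53453_150 had 110, 148 and 56.1 at 35 DAF and 0, 8.22 and 4.83 at 15 DAF (4.70 ± 0.98, unfiltered adjusted p = 0.00394). PC-3p-23476_334, of 24 bases, had 359, 281 and 401 at 35 DAF and 53.2, 45.2 and 61.2 at 15 DAF (2.68 ± 0.31, adjusted p = 7.51e-05). PC-5p-118138_60 was at 40.3, 51.0 and 33.6 at 35 DAF and listed at 0 at 15 DAF (unfiltered adjusted p = 0.00022).
PC-3p-231_14884: tTTCATTCcatacatcatctat
PC-3p-2588_2288: tTATTGTCggactaaggtgtct
PC-3p-23476_334: aGAGAACGaaggcacaatgagagc
PC-5p-118138_60: tGTTGGTCagaaaggaactta
PC-5p-69905_114, PC-3p-38261_210, PC-3p-74378_106 and PC-5p-54392_148 were listed at 0 in all 35 DAF libraries, and at 10.4 to 23.3 normalized reads in the 15 DAF libraries (adjusted p 6.34e-06 to 0.00147). PC-3p-74378_106 needed the 15 DAF libraries to be tested, and its unfiltered adjusted p was 0.0022. Of the 158 tested candidates, 9 shared a run of at least 14 bases with an annotated entry, and 30 shared such a run with the reverse complement of another tested entry. PC-3p-231_14884, PC-3p-646_6682, PC-3p-23476_334 and PC-3p-2588_2288 were picked with their values in view, as were other entries outside the naming rule, mtr-miR160a, mtr-miR166a_1ss20CT, mdm-miR156a_1ss11GA, mtr-miR396a-5p and the arms of miR3509 and miR3513 among them. PC-3p-646_6682 had 1389, 1425 and 1292 at 35 DAF and 588, 637 and 616 at 15 DAF (1.16 ± 0.34, adjusted p = 0.0195). Its call was lost without replicate 1 at 35 DAF or replicate 1 or 3 at 15 DAF (1.13 to 1.16, adjusted p 0.0505 to 0.0532).

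By length, the libraries of the stages did not overlap for sequences of 20 bases. These carried 2.87, 3.63 and 2.73% of a library's listed values at 35 DAF, against 1.05, 1.45 and 1.23% at 15 DAF. The two-sided exact permutation test gave p = 0.1, the smallest that 3 against 3 libraries allow. The strand entry ahy-miR167-3p_L-1 made up 52.5% of the 20-base values at 35 DAF and 16.7% at 15 DAF. Sequences of 21 bases carried 75.5% ± 4.88 at 35 DAF and 69.9% ± 4.57 at 15 DAF (SD, n = 3 each, exact permutation p = 0.3), and those of 22 bases 18.7% ± 4.32 at 35 DAF and 27.1% ± 4.74 at 15 DAF (exact permutation p = 0.2). Both shares turned on the most abundant entries, ahy-miR167-5p and gma-miR482b-3p: without these 2 the differences were −5.56 and 0.504 percentage points. Sequences of 24 bases carried 1.85, 0.732 and 2.45% at 35 DAF and 0.742, 0.296 and 0.541% at 15 DAF (exact permutation p = 0.2), and replicate 2 was lowest at each stage. ahy-MIR3509-p3_2ss16AG20TG made up 39.8% of the 24-base values at 35 DAF and 14.1% at 15 DAF. The share of 23 bases was 0.612% ± 0.161 at 35 DAF and 0.601% ± 0.113 at 15 DAF (SD, n = 3 each, exact permutation p = 0.9). Taken as same-numbered pairs, a comparison added after the data were seen, 35 minus 15 DAF was positive in all 3 pairs for 20 bases (1.83, 2.18 and 1.499 percentage points), 21 bases (7.45, 6.02 and 3.32) and 24 bases (1.10, 0.436 and 1.91). For 22 bases it was negative in all 3 (−10.3, −7.99 and −6.83). For these 4 lengths the two-sided exact paired permutation test gave p = 0.25, the smallest that 3 pairs allow. Per the labels, complementary DNA of 22 to 30 bases was selected on a gel, and shares by length describe listed entries after that step.

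**Figure D4:**
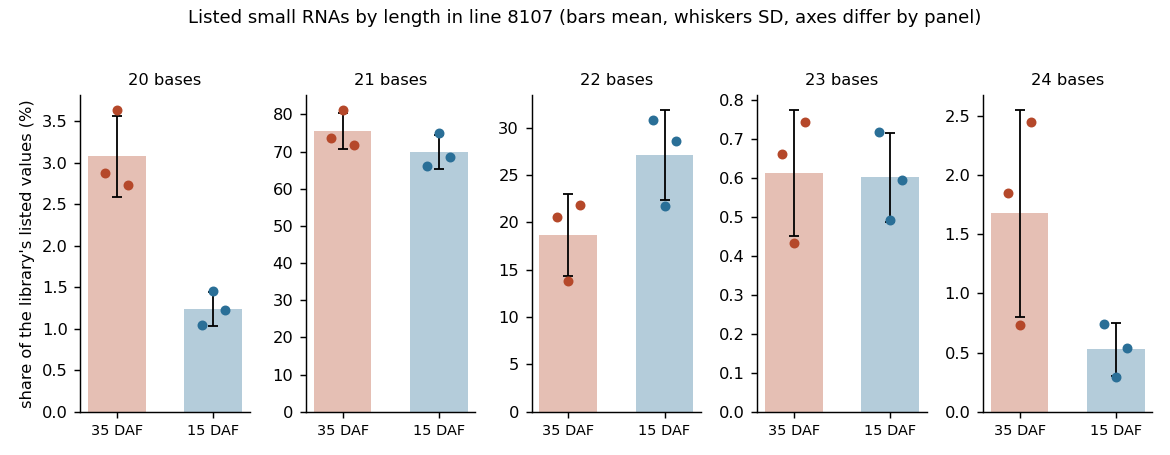
Share of each library's listed values carried by sequences of 20 to 24 bases in line 8107. Bars are means of 3 libraries, whiskers SD and points libraries, with 35 DAF left and 15 DAF right; axes start at 0 and differ by panel. With pairs left aside, the 20-base class is the one of 5 without overlap between the stages, at 2.73 to 3.63% at 35 DAF and 1.05 to 1.45% at 15 DAF.

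The stage change of 8107 was then compared with that of the medium-pod line 8106, using the difference of the changes in the same limma fit. This difference passed for 162 of 395 entries (41%), with the change higher in 8107 for 88 and lower for 74, and for 25 of 42 family sums (59.5%). The direction of these calls also rested on scaling, since with equal totals 153 were higher and 32 lower, with the median of all entries at 1.32 in place of 0.52, and with voom 141 were higher and 28 lower. The listed total was higher in 8106 libraries at 35 DAF, where ahy-miR167-5p had 433359 normalized reads on average against 213076 at 15 DAF. Of the 91 entries that rose in 8107, 16 also rose in 8106, 19 fell and 56 did not pass. Of the 92 that fell in 8107, 33 also fell in 8106, 14 rose and 45 did not pass. All 33 entries that were called in opposite directions passed the test of the difference.

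The change of miR164 was lower in 8107 than in 8106. Its sum differed by −2.86 ± 0.22 in 8107 and by −0.56 in 8106 (difference −2.30, adjusted p = 5.6e-05). Changes were also lower in 8107, with differences that passed, for miR160 (−1.43 in 8107, −0.25 in 8106), miR171 (−1.32 in 8107, 0.31 in 8106) and miR482 (−1.08 in 8107, 0.38 in 8106). The same was found for miR3508 (−3.84 in 8107, −0.99 in 8106) and miR398 (−2.79 in 8107, −0.79 in 8106). Within 8106, the changes of miR164 (adjusted p = 0.0521), miR160, miR171 and miR482 did not pass, while those of miR3508 and miR398 did. The differences of miR160 and miR482 did not pass with equal totals (−0.24, adjusted p = 0.413, and −0.53, adjusted p = 0.204), quantile normalization or voom, while those of miR164, miR171, miR398, miR3508 and miR2199 passed under every setting tried. miR2199 ran in opposite directions: 8107 averaged 226 normalized reads at 35 DAF and 5.68 at 15 DAF, and 8106 was listed at 0 at 35 DAF and averaged 8.60 at 15 DAF (difference 8.30, adjusted p = 1.16e-07). That difference depends on the pseudocount, since a group is listed at 0. miR169 rose in 8107 (1.02) and fell in 8106 (−1.41), and miR6300 fell in 8107 (−1.25) and rose in 8106 (0.90), each with a difference that passed. With quantile normalization neither passed (1.61, adjusted p = 0.0514, for miR169 and −1.21, adjusted p = 0.0599, for miR6300). For miR156 the changes were 1.74 in 8107 and 2.07 in 8106 and the difference of −0.33 did not pass (adjusted p = 0.406), although with quantile normalization it was 1.01 and passed (adjusted p = 0.0203). The same held for miR530, at 1.07 in 8107 and 0.90 in 8106, and for miR408, at −6.38 in 8107 and −2.53 in 8106, where the replicate block gave an adjusted p of 0.00595. The miR397 difference did not pass either, at −3.30 in 8107 and −4.34 in 8106, where 8106 was listed at 0 in all 35 DAF libraries. Over the other settings the difference was −1.82 to 4.04 for miR397 (adjusted p 0.018 to 0.223). For miR530 it was 0.10 to 1.11 (adjusted p 0.0013 to 0.743). Each passed in at least 1 setting, and that of miR397 also changed sign between settings.

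The strand shifts also separated the lines. The miR167 ratio moved by 2.69 in 8107 and by −3.16 in 8106, and the difference of 5.86 ± 0.14 passed (adjusted p = 3.78e-11). ahy-miR167-3p_L-1 averaged 8060 normalized reads at 35 DAF and 1300 at 15 DAF in 8107, and 386 at 35 DAF and 1691 at 15 DAF in 8106. The miR1507 ratio moved by 3.84 in 8107 and by −1.50 in 8106 (difference 5.34, adjusted p = 6.88e-07). The miR393 ratio moved by −4.12 in 8107 and −3.55 in 8106, and the difference of −0.58 did not pass (adjusted p = 0.526). Among hairpin arms, ahy-MIR3516-p5 changed by 4.39 in 8107 and by −3.04 in 8106, where it averaged 4.83 normalized reads at 35 DAF and 33.0 at 15 DAF (difference 7.44, adjusted p = 0.00018). gma-MIR5368-p3 averaged 452 normalized reads at 35 DAF in 8107 and 2.68 in 8106.

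**Figure D5:**
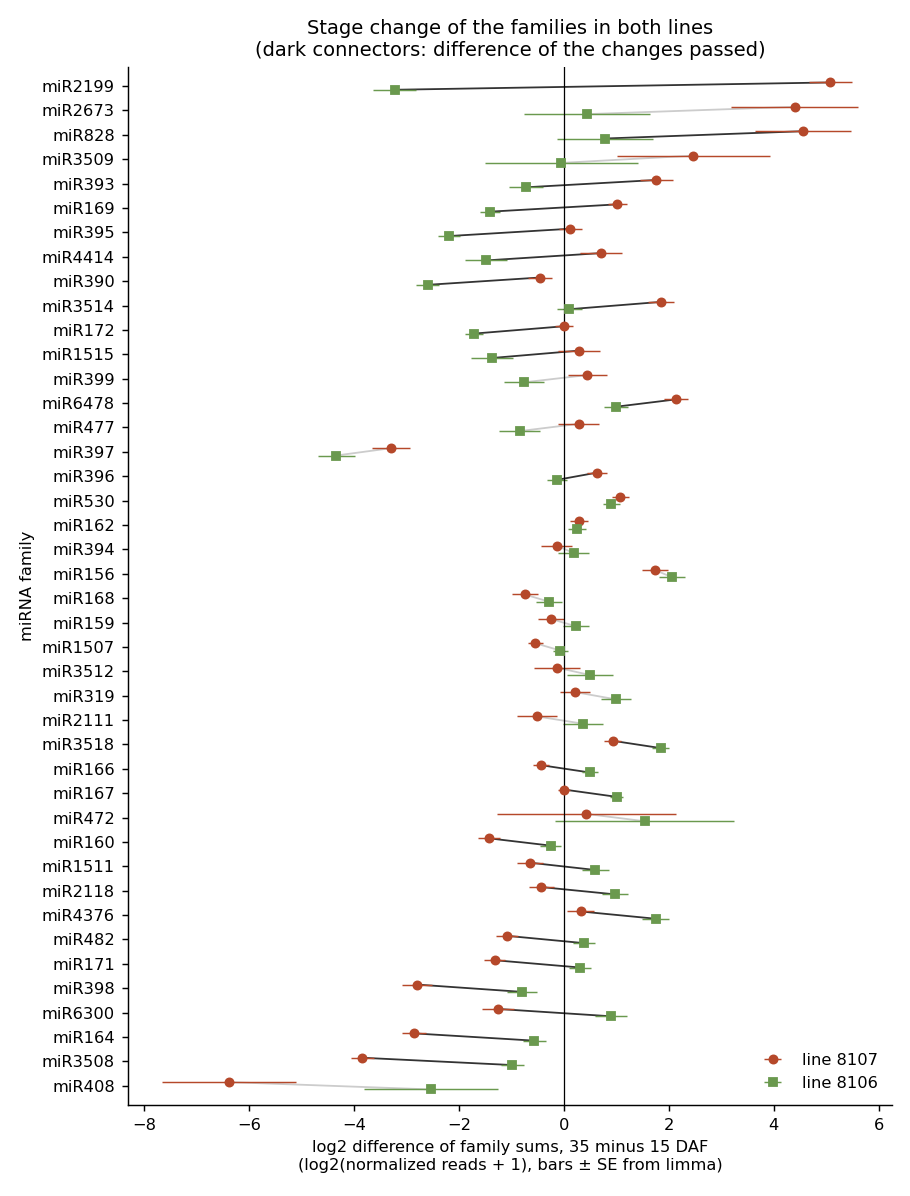
Stage change of the 42 families in both lines. The x axis gives the log2 difference of family sums, 35 minus 15 DAF, ± SE from limma, with circles for line 8107 and squares for line 8106, and dark connectors mark the 25 families whose difference of changes passed. miR2199 is far apart at the top, at 5.08 in 8107 and −3.22 in 8106, while miR530, miR156 and miR162 lie close together.

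The degradome table lists 257 small RNA names and 1196 transcripts, with an alignment score of 0 to 4 by the authors, and gives no line, stage or abundance. Of the 91 entries that rose in 8107, 35 had a listed site (38.5%), as had 44 of the 92 that fell (47.8%) and 71 of the 212 that did not pass (33.5%). The risen entries had sites in 355 transcripts and the fallen ones in 164. A single repeat-like entry, mtr-miR2673a_L+2_1ss23AT, accounted for 118 of the transcripts with sites of risen entries. ahy-MIR3516-p5 had a listed site in 1 transcript named ROS1, a DNA demethylase in Arabidopsis. miR397 had listed sites in 6 transcripts named PYRE-F and in none with a laccase symbol, miR398 in 3 named PBS1, 2 named PERK10 and 2 named Prep, and miR408 in 3 named ARPN, a plantacyanin symbol.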

How the data were processed

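Small RNA libraries were made with a TruSeq kit and read as single reads of 50 bases, per the labels' protocols. Bowtie is named without version or role in the submitters' processing notes, and the normalization and genome build are not given in the sources used here. The deposited table holds a signal per sequence and library, named as normalized reads per the file headers by the authors, with no raw counts. The 12 libraries are 3 each of 8107 at 35 DAF, 8107 at 15 DAF, 8106 at 35 DAF and 8106 at 15 DAF. A second header line shifts the columns of the predicted entries by 1, and each part was read by its own header. The 1082 lines were reduced to 795 different sequences, of which 79 in 36 sets have identical values. In the degradome table the alignment score is the authors' deposited value, where lower is a better match. No genome was used, so no loci are given.

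Within a library nearly all values are multiples of 1 step, taken as 1 read. limma 3.58.1 in R 4.3.3 was fitted with trend to log2(normalized reads + 1), with 1 mean per group over 12 libraries and no replicate block, for entries at 10 or more in at least 3 libraries. Family sums use known entries of a family number. Entries with identical values each count in family sums, strand sums, library totals and shares by length. With identical entries counted once, 24 of 42 families passed again, 11 upward and 13 downward. Calls need a Benjamini-Hochberg adjusted p under 0.05. Shares by length were compared with an exact permutation test (scipy 1.17.1). The fit was tested on simulated data.

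Alternatives were a pseudocount of 5, no filter or a filter of 50, equal totals, quantile normalization, median centring, the replicate number as a block, only the 6 libraries of 8107, identical entries counted once, and each library left out. Voom on estimated reads, the strand ratios, the paired comparison of shares by length and the settings tried on family sums between lines were added after the data were seen. The labels do not say what a replicate number shares. Deviations of same-numbered libraries from their stage means in 8107 correlated at 0.16, 0.51 and 0.26, all above 0.1, although replicate 3 at 35 DAF correlated at 0.37 with replicate 1 at 15 DAF. From the data alone, the numbers were taken to pair the libraries in the block and paired comparisons, while the main fits used no block. Between the lines, same-numbered libraries correlated at 0.04, 0.66 and 0.54 at 35 DAF and at 0.42, 0.54 and 0.15 at 15 DAF.

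The members and the 10 family lists were chosen with earlier results of these data known. Entries are named by rule: among called entries without overlap, the 10 highest and 10 lowest known entries and the 5 highest and 5 lowest others; the 10 most abundant; the 2 most abundant of each list; called family sums; and strands that differ in direction. This gave 60 entries, and others were chosen after their values were seen.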

Additional observations from a re-analysis of the deposited data

Results flagged for a closer look

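The values here are differences of the stage change (35 minus 15 DAF), line 8107 minus line 8106, on the log2(normalized reads + 1) scale, with 3 libraries per line and stage. Each passed the interaction test of limma with Benjamini-Hochberg adjustment over all entries, families or strand ratios tested, with the authors' scaling. Of the 75, 44 passed under every setting tried, 28 were lost or reversed under another scaling and 12 without 1 library, and those are named at the end. A positive value means a higher change in 8107. Groups of 3 libraries are too small for a search for single libraries that stand apart. Values of entries listed at 0 throughout a group depend on the pseudocount. Some entries passed the filter only through 1 stage of 8107, so a difference between lines was favoured by their selection. Through 35 DAF these were sly-miR164b-3p, sly-miR167b-3p, mtr-miR393a_R+1_2, nta-miR156a_R+3_1ss11GA, lja-miR171c_1ss5CT, mtr-miR2199_1ss17AG, ahy-MIR3515-p3, gma-MIR5368-p3, gma-miR828a, PC-5p-53453_150 and PC-5p-118138_60. Through 15 DAF it was ahy-miR408-3p. The miR828 sum and the 3p strand of miR164 also entered through 35 DAF.

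Among the copper miRNAs the change in 8107 was lower, by −3.84 for ahy-miR408-3p, −2.52 for mtr-miR398b, −2.96 for ahy-miR398_R+1 and −2.002 for the miR398 sum. In miR164 the differences were −2.35 for mtr-miR164a, −3.17 for mtr-miR164a_1ss21AT, −2.57 for mtr-miR164a_1ss21AG and −2.30 for the sum, while sly-miR164b-3p, the opposite strand, had 2.90. Among auxin families they were −1.08 for ahy-miR167-5p and −1.004 for the miR167 sum, 4.78 for ahy-miR167-3p_L-1 and 5.25 for sly-miR167b-3p, −1.18 for the miR160 sum, 2.14 for the miR390 sum, and 2.56 for mtr-miR393a_R+1_2 with 2.48 for its family sum.

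In the phase change families, nta-miR156a_R+3_1ss11GA differed by 4.74, ahy-miR156b-5p_R+2 by 1.54, mtr-miR172d-3p_R+1 by 1.57, mtr-miR172c-5p by 3.42 and the miR172 sum by 1.71. In other development families, mtr-miR166a and the miR166 sum each differed by −0.93, mtr-miR166g-5p by 1.18, lja-miR171c_1ss5CT by 3.92, the miR171 sum by −1.63, the miR169 sum by 2.43, lja-miR396 by 1.75 and the miR396 sum by 0.77.

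For families that target resistance genes the differences were −1.73 for gma-miR482b-3p, 3.17 for mdm-miR482a-5p_L-1_2ss11TG20AT, −1.47 for the miR482 sum, −1.40 for the miR2118 sum, 4.14 for mtr-miR1507-5p_R-1_2ss5TA18AG and −1.18 for mtr-miR1507-3p_L+1R-1. Of the sulfate family, mtr-miR395a_L+1R-1_1ss21TC had 2.27, mtr-miR395a_L-1R+1_1ss21CT had 1.88 and the miR395 sum had 2.31.

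Legume and Arachis entries ran in both directions. mtr-miR2199_1ss17AG, the single entry of its family sum, had 8.30, gma-miR1511_R-2 had −5.88, gma-miR1511_R+1_1, gma-miR1511_R+1_2 and gma-miR1511_R+1_3 had −1.18 each, and the miR1511 sum had −1.25. The sums of miR1515, miR4414 and miR4376 had 1.64, 2.19 and −1.43. ahy-miR3508, the single tested entry of its family, had −2.86, ahy-miR3514-3p and its family sum had 1.75, and the miR3518 sum had −0.91. The hairpin arms ahy-MIR3516-p5 and ahy-MIR3515-p3 had 7.44 and 6.08.

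gma-MIR5368-p3 differed by 7.76, gma-miR6300 by −3.36, the miR6300 sum by −2.15 and the miR6478 sum by 1.14. gma-miR828a differed by 3.57 and the miR828 sum by 3.78. Among predicted candidates, PC-5p-53453_150 had 6.74, PC-5p-118138_60 had 4.46 and PC-5p-54392_148 had −2.98.

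The change of the strand ratio (less abundant over more abundant strand) was higher in 8107 by 5.86 for miR167, 5.34 for miR1507, 5.21 for miR164, 4.66 for miR482, 2.45 for miR159, 2.27 for miR166, 1.36 for miR172, 0.91 for miR160 and 0.41 for miR156, and lower by −0.54 for miR396.

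Under other scalings the following differences did not pass. With equal totals they were −0.14 for ahy-miR167-5p (adjusted p = 0.455), −0.24 for the 3 equal gma-miR1511_R+1 forms (adjusted p = 0.551), −0.24 for mtr-miR1507-3p_L+1R-1 (adjusted p = 0.191), −0.79 for gma-miR482b-3p (adjusted p = 0.0605), and for the sums −0.07 for miR167, −0.31 for miR1511, −0.24 for miR160, −0.47 for miR2118, −0.50 for miR4376 and −0.53 for miR482. mtr-miR166a and the sums of miR166 and miR3518 reversed with equal totals, at values near 0. The same entries and sums were lost or reversed with voom, except gma-miR482b-3p. With quantile normalization the call was lost for mtr-miR393a_R+1_2 (adjusted p = 0.106), mtr-miR395a_L-1R+1_1ss21CT (adjusted p = 0.0809), sly-miR164b-3p (adjusted p = 0.0591), gma-miR482b-3p (−0.17, adjusted p = 0.807) and the sums of miR169, miR6300 and miR828, among others, and the miR6478 sum reversed. With median centring mtr-miR166g-5p (adjusted p = 0.0817), sly-miR164b-3p (adjusted p = 0.0558) and the sums of miR166 and miR3518 were lost. The sums of miR1515 and miR6300 were lost when taken over their most abundant entry alone (adjusted p = 0.109 and 0.416).

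Leaving out 1 library ended these calls. ahy-miR408-3p was lost without any 1 library at 35 DAF or without replicate 2 or 3 at 15 DAF (adjusted p 0.0508 to 0.061), with voom (adjusted p = 0.141) and with no filter (adjusted p = 0.0535). ahy-miR156b-5p_R+2 was lost without replicate 1 or 3 at 35 DAF or any 1 library at 15 DAF (adjusted p 0.0612 to 0.0935), with no filter, and with quantile normalization, median centring and voom (adjusted p = 0.272, 0.0745 and 0.182). mtr-miR164a_1ss21AT was lost without replicate 2 or 3 at 35 DAF or replicate 1 at 15 DAF (adjusted p 0.0557 to 0.0591) and with equal totals. mtr-miR164a_1ss21AG was lost without any 1 library at 15 DAF (adjusted p 0.0661 to 0.0705), with no filter, equal totals and voom. sly-miR164b-3p was lost without any 1 library at 35 DAF or replicate 2 at 15 DAF (adjusted p 0.0591 to 0.0859) and with no filter. gma-miR6300 was lost without replicate 1 or 3 at 35 DAF or replicate 2 or 3 at 15 DAF (adjusted p 0.0718 to 0.0934), with no filter, equal totals and voom. The gma-miR1511_R+1 forms were lost without replicate 1 or 3 at 35 DAF or replicate 2 at 15 DAF (adjusted p 0.0517 to 0.0591), the miR1515 sum without replicate 1 or 3 at 35 DAF (adjusted p = 0.0556 and 0.065), and the miR396 sum without replicate 1 at 35 DAF or replicate 3 at 15 DAF (adjusted p = 0.0601 and 0.0552). The strand ratio of miR156 was lost without replicate 1 or 3 at 35 DAF or replicate 2 or 3 at 15 DAF (adjusted p 0.102 to 0.117). All libraries named here are of 8107.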

How the results depend on the processing

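The main setting gave 183 entries past the threshold. The other settings of scaling, pseudocount, filter and libraries fitted gave totals of 168 to 227, apart from a filter of 50 normalized reads. That filter gave a total of 118 (52 rose, 66 fell), since fewer entries were tested. These totals do not count how many of the 183 were kept, and each of these settings lost some of the 183. Leaving out each library of 8107 in turn gave 148 to 192 entries, 21 to 26 family sums, 141 to 166 entries with a difference between lines, and 9 to 10 strand ratios. With the replicate number as a block, 230 entries passed (114 rose, 116 fell) and 27 families in place of 24. Beyond results where its p is given above, the block added calls for the miR4414 sum (0.70), mtr-miR319a-3p_R+1_2 (0.65), PC-3p-107_28599 (0.41) and, between lines, ptc-miR6478_R+4_1ss21GA (2.38), and, for family sums between lines, miR1507 (−0.48), miR159 (−0.48), miR2673 (3.96), miR319 (−0.79), miR399 (1.21), miR408 (−3.84) and miR477 (1.13), and changed no other call of a named result.

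Some directions reversed, and the cause was not tested. With quantile normalization the difference was 0.45 for mtr-miR166a, 0.36 for the miR1507 sum, 0.00 for miR1511, 0.40 for miR166, 0.70 for miR394 and −0.46 for miR395, and the difference between lines was 0.28 for mtr-miR166a and 0.64 for gma-miR168a. Between lines, family sums reversed for miR1507 (0.459 with equal totals and with voom, 0.661 with quantile normalization), miR156 (1.01 with quantile normalization), miR166 (0.0103 with equal totals, 0.00315 with voom, 0.399 with quantile normalization), miR3518 (0.0214 with equal totals, 0.0295 with voom) and miR6478 (−0.224 with quantile normalization). With equal totals the miR172 sum gave 0.33, and mtr-miR166a between lines gave 0.00902. With voom, ahy-miR167-5p gave 0.27 (adjusted p = 0.0182) and mtr-miR166a between lines 0.0058. Without the 2 most abundant entries, the shares of 20, 21, 22 and 24 bases differed by 3.40, −5.56, 0.504 and 2.18 percentage points in place of 1.83, 5.60, −8.37 and 1.15. Leaving out each library gave 1.56 to 2.01 points for 20 bases, 2.83 to 8.15 for 21, −11.0 to −5.91 for 22, −0.0548 to 0.101 for 23 and 0.763 to 1.62 for 24. Over named entries and all settings, 1491 values kept direction and side of the threshold, 55 lost the call, 26 gained it and 2 reversed. Depth limits entries under 10 normalized reads, which were not tested, and values of 0, which may hide a few reads.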
